A study of Mus musculus with 2 samples.

Results

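Cycling GABAergic progenitors are dividing cells that carry the transcription factors of the GABAergic neuron lineage. They were chosen by gene counts: a cell needed at least 2 unique molecular identifiers (UMIs, each marking 1 captured RNA molecule) of *Dlx1* and *Dlx2* together, at least 2 of *Mki67* and *Top2a* together, and 0 of *Eomes* and of *Neurod6*. This gave 463 of 16213 cells, with 181 of 5966 in replicate 1 (3.03%, exact 95% binomial interval 2.61 to 3.50) and 282 of 10247 in replicate 2 (2.75%, 2.44 to 3.09). Such intervals cover counting error only, and the shares of both libraries lay within each other's interval. The levels of these 6 genes in the chosen cells follow from the choice and are no result.

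GABAergic neurons of the forebrain arise in the ganglionic eminences, the proliferative swellings of the ventral telencephalon, which have a medial (MGE), a lateral (LGE) and a caudal (CGE) part. Progenitors there turn on the homeodomain factors *Dlx1* and *Dlx2* as they commit to the GABAergic lineage, while dividing progenitors of the cortex itself, the pallial radial glia and the *Eomes*-expressing intermediate progenitor cells (IPCs), make excitatory neurons. Notch signaling between neighbouring progenitors times their exit from the cell cycle.

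The study concerned the DNA methyltransferase DNMT1 in migrating SST+ interneurons, which come from the MGE, and their signals to cortical progenitors. The 2 libraries came from cerebral cortex at embryonic day (E) 16.5 of control animals labelled EomesDot and WT, from an *Eomes-Cre* mouse line. They form a single group, so every comparison lay between kinds of cells in the same libraries, with n = 2 libraries. The labels do not say whether a library held cells of 1 embryo or of several, nor that the libraries came from separate embryos, so they may be technical replicates, and every error and p-value then measures only the spread between these libraries. The study names another strain, C57BL/6J, for its single-cell data at this stage, and the labels were followed.

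The deposited matrix of replicate 1 listed 9049 barcodes (46398156 UMIs in all) and that of replicate 2 listed 13556 (64324236 UMIs). Barcodes with 1500 to 60000 UMIs and under 10% mitochondrial UMIs were kept, which were 65.9% and 75.6% of them. There were 40 barcode sequences present in both libraries, and 2 progenitors of replicate 1 and 4 of replicate 2 carried one of them. A doublet score was among the highest of its library in 9.39% and 13.1% of the progenitors, against 3.16% and 7.22% of the non-cycling GABAergic cells described below. The *Dlx* criterion alone was met by 3.40% and 4.11% of the cells with at least 2 UMIs of *Neurod6*, a marker of excitatory neurons, and the *Mki67* and *Top2a* criterion by 3.32% and 4.59% of them (2530 and 4230 cells). Among cells with at least 2 UMIs of the endothelial gene *Cldn5* (52 and 184 cells) 3.85% and 14.1% met the *Dlx* criterion. The requirement of 0 *Eomes* and *Neurod6* UMIs set aside 39 and 105 cells that met both other criteria.

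The progenitors were compared with 3 other kinds of cells. Non-cycling GABAergic cells (602 and 845) met the same *Dlx* criterion with 0 UMIs of *Mki67* and *Top2a*. Cycling pallial radial glia (53 and 70) met the *Mki67* and *Top2a* criterion with at least 1 UMI of *Emx1* or *Emx2* and 0 of *Dlx1* and *Dlx2*. Cycling IPCs (9 and 13) met it with at least 2 UMIs of *Eomes* and no *Dlx* UMI. All 3 kinds held 0 UMIs of *Neurod6*, and the first 2 held 0 of *Eomes*. The median depth was 6977 and 6334.5 UMIs in the progenitors, 4199 and 4327 in the non-cycling GABAergic cells, 11974 and 6161.5 in the radial glia and 13124 and 10537 in the IPCs. Levels are given as CPM, which are UMI counts summed over all cells of a kind in a library and scaled by edgeR to the same total, always with replicate 1 before replicate 2. In a comparison the values of the progenitors, or of the marked cells, stand before "against", and log2 fold changes from edgeR are given ± their standard error.

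Markers that the choice did not use were those of the GABAergic lineage. *Gad1* or *Gad2*, the enzymes that make GABA, were detected in 76.8% and 75.9% of the progenitors, *Dcx*, a microtubule protein of young neurons, in 72.4% and 74.5%, and *Sp9*, a ganglionic eminence factor, in 65.2% and 59.2%. The pallial factor *Emx1* was detected in 1.10% and 2.84%, and the oligodendrocyte precursor receptor *Pdgfra* in 3.87% and 3.90%. With each cell thinned to 1500 UMIs, so that depth was equal, *Gad2* was found in 31.5% and 35.8% of the progenitors, in 54.0% and 48.0% of the non-cycling GABAergic cells and in 3.77% and 1.43% of the pallial radial glia. *Sp9* was found in 30.4% and 23.4% of the thinned progenitors and in 0 of 53 and 0 of 70 thinned radial glia.

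**Figure D1:**
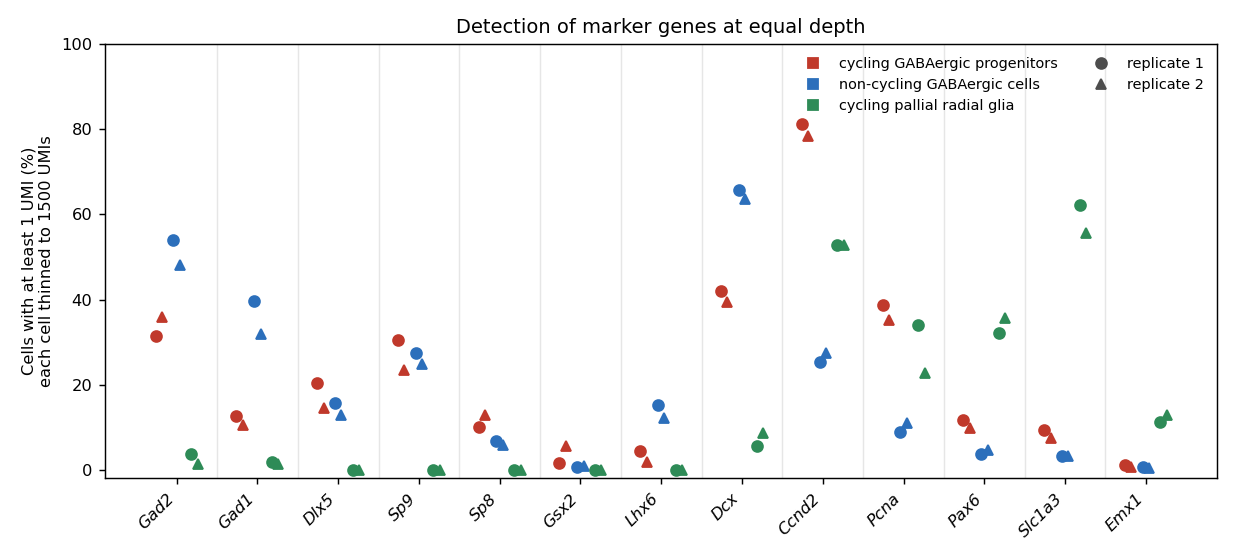
Share of cells (%) with at least 1 UMI of each gene after thinning every cell to 1500 UMIs, for cycling GABAergic progenitors, non-cycling GABAergic cells and cycling pallial radial glia. Circles are replicate 1 and triangles replicate 2. *Ccnd2* was detected in 81.2% and 78.4% of the progenitors, above both other kinds of cells in both libraries.

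Cells just inside and just outside the choice give a picture of its borders. Progenitors with exactly 2 *Dlx1* and *Dlx2* UMIs (30 and 36 cells) held 416 and 291 CPM of *Gad2* and 155 and 188 CPM of *Sp9*. Otherwise equal cells with exactly 1 *Dlx* UMI (24 and 46) held 254 and 208 CPM of *Gad2* and 73.4 and 91.6 CPM of *Sp9*, and those with 0 (132 and 226) held 27.0 and 65.7 CPM of *Gad2*. At the cycle border, cells with exactly 1 *Mki67* or *Top2a* UMI (59 and 98) held 267 and 164 CPM of *Pcna*, the replication clamp, against 584 and 319 CPM in those with exactly 2 (21 and 43). The cells set aside for a UMI of *Eomes* or *Neurod6* (39 and 105) held 277 and 276 CPM of *Gad2* and 241 and 119 CPM of *Sp9*. The lineage of these cells was not tested.

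Markers of the regions of the ganglionic eminences were read as shares of progenitors with at least 1 UMI. The libraries were labelled cerebral cortex, and where in the tissue these progenitors lay was not tested. *Meis2*, a factor of the LGE lineage that pallial radial glia share (98.1% and 100% of them), was detected in 172 of 181 and 272 of 282 cells. *Sp8*, a factor of the dorsal LGE and the CGE, was detected in 25.4% and 25.5%, *Pax6*, which patterns the dorsal telencephalon and the dorsal LGE, in 34.3% and 32.6%, and *Gsx2*, which specifies LGE progenitors, in 12.2% and 16.7%. The MGE markers *Nkx2-1*, *Lhx6* or *Lhx8* were detected in 27 cells of replicate 1 (14.9%, 10.1 to 21.0) and 30 cells of replicate 2 (10.6%, 7.29 to 14.8). *Nr2f2* or *Prox1*, factors of the CGE lineage, were detected in 45.3% and 30.5%, and *Isl1* or *Ebf1*, factors of striatal projection neurons, in 13.3% and 9.22%. Free RNA can give such UMIs, so the same shares were taken in the cells with at least 2 UMIs of *Neurod6* (2530 and 4230 cells, median depth 7559.5 and 6322.5 UMIs). There *Sp8* was detected in 1.74% and 1.89%, *Gsx2* in 0.119% and 0.449%, *Pax6* in 12.7% and 12.3%, an MGE marker in 4.19% and 3.92%, and *Nr2f2* or *Prox1* in 18.3% and 17.6%. *Isl1* or *Ebf1* were detected in 9.49% and 9.81% of them and *Meis2* in 89.0% and 86.7%. The intervals of the progenitors (8.68 to 19.1 and 6.11 to 13.2) include these shares of *Isl1* or *Ebf1*, and *Meis2* was detected in most cells of both kinds. No expression of *Isl1* or *Ebf1* in the progenitors was read from a share near that of the *Neurod6* cells. It was 7.55% and 1.43% in the radial glia. Of the cells with at least 2 UMIs of *Cldn5*, 78.8% and 58.7% held *Isl1* or *Ebf1*. That is far above the other shares, so the *Cldn5* cells cannot serve as a measure of free RNA for this set. *Isl1* alone, in summed counts, was higher than in radial glia (28.04 and 18.7 against 4.67 and 5.81 CPM, log2 fold change 2.16 ± 0.51, adjusted p = 0.00255). In the *Cldn5* cells an MGE marker was detected in 5.77% (1.21 to 15.9) and 9.78% (5.90 to 15.0), and *Nr2f2* or *Prox1* in 38.5% (25.3 to 53.0) and 35.9% (28.9 to 43.3), intervals that overlap those of the progenitors in both libraries. Whether the *Cldn5* cells express *Nr2f2* or *Prox1* themselves was not tested, so that overlap does not measure free RNA. The share with *Nr2f2* or *Prox1* was the one in which the libraries' intervals did not overlap.

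Detection of these markers in the same cells is given as a description, with no test. *Pax6* was found in 54.3% and 52.8% of the *Sp8*-positive progenitors (46 and 72 cells) but in 3.70% and 3.33% of those with an MGE marker, which was 1 cell in each library. These are shares of detected UMIs in cells of unequal depth, with a median of 8800 and 8140.5 UMIs in MGE-marked progenitors and 6603 and 6121.5 in the others.

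**Figure D2:**
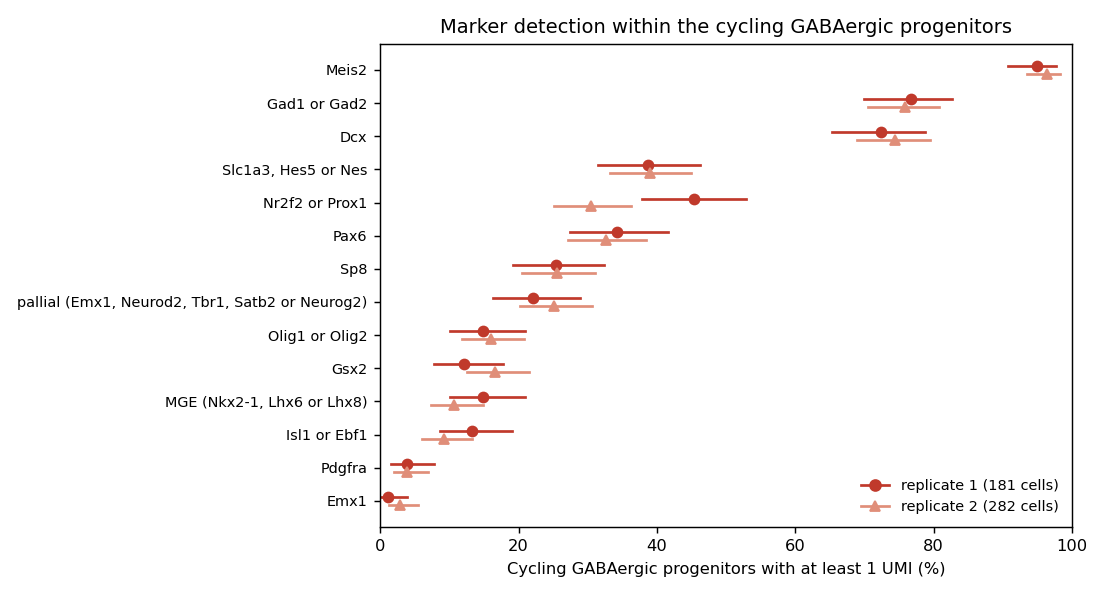
Share of the cycling GABAergic progenitors (%) with at least 1 UMI of each marker or marker set, as deposited, with circles for replicate 1 (181 cells), triangles for replicate 2 (282 cells) and lines for exact 95% binomial intervals. *Meis2* was found in nearly every cell and MGE markers in 14.9% and 10.6%.

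The MGE-marked progenitors were compared with the unmarked ones by edgeR on summed counts, leaving out 8 genes used to choose or mark the cells, the 3 MGE markers among them. Of 9524 genes tested, 1.12% were called at an adjusted p under 0.05, 0.829% higher and 0.294% lower. Of a list of postmitotic interneuron genes, 7 of 24 tested genes were higher and 0 were lower (median log2 fold change 0.72, against -0.01 over all genes). *Maf*, a factor of MGE interneurons, was at 151 and 104 against 5.52 and 13.3 CPM (log2 fold change 3.69 ± 0.43, adjusted p = 0.000381). *Nxph1*, a neurexin ligand, was at 469.6 and 465 against 12.6 and 43.9 CPM (log2 fold change 4.06 ± 0.30, adjusted p = 6.2e-06). *Erbb4*, the neuregulin receptor of migrating interneurons, was at 3622 and 2372 against 657 and 736 CPM (log2 fold change 2.08 ± 0.16, adjusted p = 6.2e-06), and *Sox6*, which acts after *Lhx6* in MGE interneurons, at 539 and 856 against 263 and 293 CPM (log2 fold change 1.30 ± 0.17, adjusted p = 0.000744). *Npy*, *Ackr3* and *Robo1* were the other 3 that were called. The summed level of each of the 4 genes described was higher in the marked cells in both libraries.

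The largest difference in that split was in *Sfta3-ps*, a pseudogene that neighbours *Nkx2-1* in the genome, at 457 and 449 against 3.94 and 1.11 CPM (log2 fold change 7.53 ± 0.32, adjusted p = 1.93e-08). Since *Nkx2-1* was used to mark the cells, this difference may follow from the choice, which was not tested. On the higher side *Ptprt*, a receptor phosphatase, and *Dlgap2*, a postsynaptic scaffold, followed with log2 fold changes of 4.47 ± 0.41 and 4.38 ± 0.31 (adjusted p = 4.04e-05 and 3.9e-06). Lower in MGE-marked progenitors were *Sp8* (12.3 and 4.15 against 69.4 and 83.9 CPM, log2 fold change -3.19 ± 0.53, adjusted p = 0.00591), *Pax6* (20.4 and 8.31 against 101 and 102 CPM, log2 fold change -2.81 ± 0.43, adjusted p = 0.00302) and *Meis2* (1768 and 868 against 2762 and 2315 CPM, log2 fold change -1.02 ± 0.15, adjusted p = 0.00259), the glutamate transporter *Slc1a3* (-2.92 ± 0.34, adjusted p = 0.000377) and the EGF receptor *Egfr* (-2.51 ± 0.41, adjusted p = 0.00512). *Gas1*, a hedgehog co-receptor, had 1 UMI against 174 (ratio 27.6, counting interval 4.88 to 1094) and *Gm29585* had 1 UMI against 126 (ratio 19.95, counting interval 3.52 to 794). The radial glial list had 4 of 17 lower and 0 higher. Of 43 S phase and 52 G2M genes 0 were called by edgeR or by DESeq2 in that split, and 2 and 3 had an unadjusted p under 0.05 in edgeR.

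The split was small and depended on its settings. Without the cells of the highest doublet scores, which made up 2 of 27 and 10 of 30 marked cells, 31 genes were higher and 18 lower in place of 82 and 28 (the 3 marker genes included), and 2 of 22 postmitotic interneuron genes were called, *Nxph1* (log2 fold change 4.18, adjusted p = 0.000239) and *Robo1* (1.65, adjusted p = 0.0206). The calls of *Maf* (3.14, adjusted p = 0.167), *Erbb4* (1.32, adjusted p = 0.561), *Sox6* (0.55, adjusted p = 0.573), *Npy* (1.01, adjusted p = 0.931) and *Ackr3* (1.89, adjusted p = 0.0766) were lost. DESeq2 called 29 higher and 4 lower, *Maf*, *Nxph1*, *Erbb4* and *Sox6* among the former, and did not call the differences of *Sp8*, *Pax6* and *Egfr*.

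Set against non-cycling GABAergic cells, the progenitors held more *Gsx2* and *Helt* and less *Lhx6*, *Nr2f2* and GABA enzyme RNA. Of 12276 genes tested, leaving out the gate genes and the lists of S phase and G2M genes, 18.6% were called higher and 17.9% lower. *Gsx2* was at 22.03 and 32.5 against 4.41 and 4.86 CPM (log2 fold change 2.54 ± 0.36, adjusted p = 2.83e-06). *Helt*, a bHLH repressor of GABAergic lineages, was at 30.7 and 34.4 against 3.05 and 7.93 CPM (log2 fold change 2.54 ± 0.35, adjusted p = 1.96e-06). The progenitors lay above the non-cycling cells in both libraries for both genes. *Olig2*, which marks ventral and oligodendroglial progenitors, was also higher (2.17 ± 0.31, adjusted p = 2.25e-06), as was the zinc finger factor *Insm1*, which accompanies the step to a neurogenic division (161 and 139 against 28.8 and 28.9 CPM, log2 fold change 2.36 ± 0.14, adjusted p = 2.63e-13). *Lhx6*, which MGE cells turn on as they leave the cycle, was at 21.4 and 13.3 against 129 and 93.6 CPM (log2 fold change -2.69 ± 0.19, adjusted p = 7.57e-12). *Nr2f2* was at 66.8 and 49.2 against 150.3 and 112 CPM (log2 fold change -1.18 ± 0.18, adjusted p = 4.8e-06). Both were lower in the progenitors. *Nkx2-1* did not pass the test at 38.05 and 41.3 against 44.4 and 28.1 CPM (0.18 ± 0.22, adjusted p = 0.559), nor did *Sp9* or *Prox1*. Of 23 ganglionic eminence factors tested 7 were higher and 7 lower, and DESeq2 called 4 and 3, with *Nr2f2*, *Sp8*, *Meis2* and *Vax1* among those it did not call.

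The enzymes and transporters of GABA were lower in the progenitors in 5 of 5 genes (median log2 fold change -0.73, against -0.02 over all genes). *Gad1* was at 95.5 and 84.6 against 302 and 279 CPM (log2 fold change -1.69 ± 0.14, adjusted p = 9.49e-11). *Gad2* was at 384 and 318 against 581 and 527 CPM (log2 fold change -0.66 ± 0.11, adjusted p = 1.55e-05). *Slc32a1*, which loads GABA into vesicles, was at 28.7 and 26.6 against 59.4 and 54.2 CPM (log2 fold change -1.04 ± 0.20, adjusted p = 0.000123). *Dlx5* (128 and 107 against 128 and 115 CPM), *Dlx6* and the noncoding *Dlx6os1* did not pass the test, with log2 fold changes of -0.05 ± 0.13, 0.09 ± 0.16 and -0.03 ± 0.14, and 0 of 4 other *Dlx* locus genes was called by edgeR or DESeq2, with 1 at an unadjusted p under 0.05 in edgeR.

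Genes of postmitotic interneurons were lower in 25 of 27 cases and higher in none (median -1.42), and DESeq2 called 23 lower. *Sst*, the neuropeptide of SST+ interneurons, was at 14.7 and 12.3 against 188 and 124 CPM (log2 fold change -3.49 ± 0.19, adjusted p = 3.47e-14). *Npy* was at 20.03 and 20.2 against 285 and 170.0 CPM (log2 fold change -3.43 ± 0.19, adjusted p = 2.4e-14). *Maf* was at 29.4 and 24.1 against 238 and 229.8 CPM (log2 fold change -3.14 ± 0.15, adjusted p = 2.19e-15). *Erbb4* was at 1148 and 933 against 6687 and 5976 CPM (log2 fold change -2.61 ± 0.13, adjusted p = 2.46e-15). *Ackr3*, a scavenger receptor for the chemokine Cxcl12, was at 42.1 and 35.4 against 119 and 86.4 CPM (log2 fold change -1.39 ± 0.16, adjusted p = 8.39e-08). The differences in *Dcx* (-1.08 ± 0.11), the neuronal tubulin *Tubb3* (-1.02 ± 0.11) and *Stmn2* (-1.19 ± 0.11) were smaller, with adjusted p-values of 4.51e-09, 1.57e-08 and 8.96e-10, and the progenitors held 358 and 362 CPM of *Dcx*. *Zeb2*, which directs MGE cells to the cortex, was at 1072 and 994 against 1203 and 1056 CPM and did not pass the test (-0.13 ± 0.11, adjusted p = 0.387).

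Radial glial genes were higher than in non-cycling GABAergic cells in 15 of 18 cases and lower in 1, *Id4* (median 1.20), and DESeq2 called 12 and 0. *Nes*, the intermediate filament of neural stem cells, was at 39.4 and 48.2 against 7.46 and 12.5 CPM (log2 fold change 2.10 ± 0.25, adjusted p = 1.09e-07). *Sox9* was at 76.1 and 74.3 against 33.2 and 32.5 CPM (log2 fold change 1.19 ± 0.15, adjusted p = 4.34e-07). *Vim* was at 296 and 323 against 136 and 158 CPM (log2 fold change 1.07 ± 0.15, adjusted p = 1.1e-06). The libraries differed for *Fabp7*, the brain fatty acid-binding protein, at 1346 and 791 against 333 and 658 CPM, with log2 ratios of 2.01 and 0.27 in the libraries, and for *Slc1a3*, with 2.49 and 1.09. Of 7 pallial factors 4 were higher than in non-cycling GABAergic cells (*Pax6*, *Lhx2*, *Insm1* and *Btg2*) and 0 lower (median 1.26), with the same counts under DESeq2 and a summed level of the list of 404 and 388 against 111 and 139 CPM.

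Of 17 Notch pathway genes 11 were higher and 0 lower (median 1.05), and DESeq2 called 4 of them. The receptor *Notch1* was at 91.4 and 87.6 against 19.3 and 23.5 CPM (log2 fold change 2.05 ± 0.18, adjusted p = 3.43e-10). The ligands *Dll1* and *Dll3*, which present the signal to neighbouring cells, were at 23.4 and 28.1 against 10.5 and 12.3 CPM and at 34.04 and 33.96 against 15.6 and 17.1 CPM (log2 fold changes 1.17 ± 0.28 and 1.05 ± 0.25, adjusted p = 0.0017 and 0.00163), and both calls were lost with DESeq2. *Hes6*, which opposes the Notch effector Hes1, was at 183 and 201 against 80.4 and 91.02 CPM (log2 fold change 1.16 ± 0.12, adjusted p = 1.13e-08). *Hes1* itself was low at 6.01 and 11.8 against 4.75 and 7.67 CPM and did not pass the test (0.53 ± 0.36, adjusted p = 0.268).

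Of 21 cyclins, cyclin-dependent kinases and their inhibitors tested, 15 were higher and 2 lower (median 1.75). These genes travel with the cycle genes that defined the groups. *Ccnd2*, the D-type cyclin of basal progenitors, was at 1934 and 1821 against 499 and 518 CPM (log2 fold change 1.88 ± 0.11, adjusted p = 2.07e-13). *Ccnd1* was at 74.1 and 73.3 against 23.7 and 20.5 CPM (log2 fold change 1.75 ± 0.19, adjusted p = 2.17e-08). Of the inhibitors, *Cdkn2c* (p18) was at 71.4 and 75.3 against 2.71 and 4.09 CPM (log2 fold change 4.36 ± 0.26, adjusted p = 1.41e-13) and *Cdkn1b* (p27) at 206 and 176 against 102 and 107 CPM (log2 fold change 0.86 ± 0.13, adjusted p = 3.49e-06), both higher, while *Cdkn1c* (p57) was lower at 39.4 and 44.3 against 53.6 and 100.5 CPM (log2 fold change -0.88 ± 0.21, adjusted p = 0.00148), a call that DESeq2 did not make. *Gadd45g*, a growth arrest factor of cells about to differentiate, was at 324 and 319 against 104 and 139.8 CPM (log2 fold change 1.40 ± 0.12, adjusted p = 3.02e-10).

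**Figure D3:**
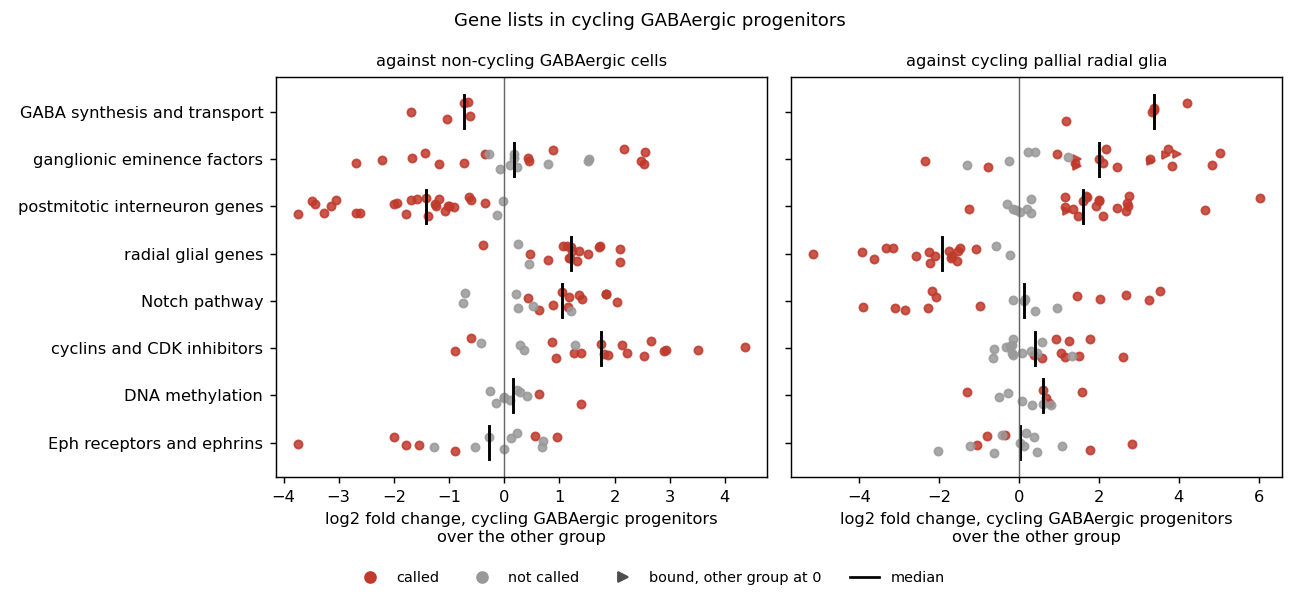
Log2 fold change of each tested gene in 8 gene lists, cycling GABAergic progenitors over non-cycling GABAergic cells (left) and over cycling pallial radial glia (right). Red points were called, grey points were not, triangles are lower bounds where the other group held 0 UMIs, and black bars are medians. Radial glial genes lie to the right in the left panel (median 1.20) and to the left in the right panel (median -1.93).

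The largest differences from non-cycling GABAergic cells outside the cycle lists included genes of mitosis, which follow from the choice of cells by *Mki67* and *Top2a* and are given as a description. *Kif18b*, a mitotic kinesin, had 173 UMIs against 0, which is at least 112-fold higher on the limit of 3 counts over the group, *Depdc1b*, a mitotic regulator, 263 UMIs against 2 (ratio 256, counting interval 70.04 to 2121), the histone gene *Hist1h2af* 92 UMIs against 1 (ratio 179, counting interval 31.3 to 7137) and *Esco2*, a cohesin acetyltransferase, 490 UMIs against 9 (log2 fold change 6.64 ± 0.27, adjusted p = 6.87e-17). *Gm16090* had 81 UMIs against 0 (at least 52.5-fold). On the lower side, *Mrc1* and *Fcer1g*, genes of macrophages, had 0 UMIs against 90 and 0 UMIs against 72 (at least 15.4-fold and 12.4-fold lower), and the others were *4930473D10Rik*, *4930555F03Rik* and *Gm45341*. DESeq2 did not call *Gm16090*, *Mrc1*, *Fcer1g* or *4930473D10Rik*. Of the microglia and macrophage list 4 of 7 were lower, with a summed level of 21.1 and 16.3 CPM in the progenitors against 53.1 and 55.8 CPM and with *Fcer1g* at 0 in both libraries. DESeq2 called 0 of the 7, also at an unadjusted p under 0.05. By edgeR 0 of the 3 members tested were called without the highest doublet scores, and 0 of the 2 tested with 3 UMIs required for each criterion, in both cases also at an unadjusted p under 0.05. Of the erythroid list 4 of 5 were lower, with a sum of 897 and 997 CPM against 1362 and 3233 CPM, and DESeq2 called 3. The endothelial list summed to 13.2 and 124 CPM in the progenitors against 48.1 and 56.5 CPM, so that replicate 2 stood above both libraries of the non-cycling cells and replicate 1 below. Its *Cldn5* was at 5.34 and 81.2 against 31.5 and 35.8 CPM, with up to 71 UMIs in a single progenitor of replicate 2. By edgeR and by DESeq2 0 of 5 endothelial genes tested were called, also at an unadjusted p under 0.05. Of the 2 still tested by edgeR, 1 was lower without the highest doublet scores and 1 higher with 3 UMIs required for each criterion. The part of these cell types in the other differences was not tested.

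Set against cycling pallial radial glia, dividing cells of the other lineage, the progenitors differed in 19.7% of 12371 genes, 9.83% higher and 9.91% lower. Here both groups were chosen for the same cycle genes. Genes of the *Dlx* locus differed by the choice of cells. Of 23 ganglionic eminence factors 16 were higher and 2 lower (median 2.16, or 1.995 with genes that had 0 UMIs in radial glia at their lower bound, against 0.03 over all genes). *Sp9* was at 228 and 169 against 1.56 and 11.6 CPM (log2 fold change 5.03 ± 0.34, adjusted p = 2.25e-11). *Sp8* was at 60.7 and 74.8 against 6.23 and 7.74 CPM (log2 fold change 3.28 ± 0.38, adjusted p = 2.21e-07). *Helt* and *Nkx2-1* had 0 UMIs in radial glia, so that the progenitors were at least 12.7-fold and at least 15.4-fold higher, and *Gsx2* had 99 UMIs against 1 (ratio 32.5, counting interval 5.70 to 1296). *Meis2* did not pass the test at 2626 and 2152 against 2144 and 1917 CPM (0.23 ± 0.12, adjusted p = 0.187), nor did *Olig2* (0.40 ± 0.36, adjusted p = 0.507). *Ebf1* was lower in the fit, at 43.4 and 9.35 against 254 and 5.81 CPM, but its log2 ratios of -2.51 and 0.58 went opposite ways in the libraries and DESeq2 did not call it.

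The 5 GABA enzymes and transporters were all higher than in radial glia (median 3.37), with *Gad2* at 384 and 318 against 21.8 and 15.5 CPM (log2 fold change 4.21 ± 0.22, adjusted p = 1.19e-13). *Gad1* was at 95.5 and 84.6 against 3.12 and 15.5 CPM (log2 fold change 3.37 ± 0.36, adjusted p = 5.08e-08). Postmitotic interneuron genes were higher in 19 of 27 cases and lower in 1, *Sox6* (310.4 and 361 against 887 and 724 CPM, log2 fold change -1.24 ± 0.14, adjusted p = 1.04e-07), a gene that pallial radial glia also express. *Dcx* was at 358 and 362 against 59.2 and 52.3 CPM (log2 fold change 2.69 ± 0.17, adjusted p = 5.06e-12). *Tubb3* was at 596 and 569.9 against 96.6 and 120.0 CPM (log2 fold change 2.44 ± 0.15, adjusted p = 2.61e-12). *Zeb2* was at 1072 and 994 against 312 and 232 CPM (log2 fold change 1.93 ± 0.13, adjusted p = 1.22e-11). *Insm1* was at 161 and 139 against 35.8 and 38.7 CPM (log2 fold change 2.01 ± 0.21, adjusted p = 2.96e-08).

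Radial glial genes were lower in 16 of 18 cases and higher in none (median -1.93), with the same counts under DESeq2, and *Sox2* and *Prom1* were the ones that did not pass. *Fabp7* was at 1346 and 791 against 9268 and 9830.4 CPM (log2 fold change -3.15 ± 0.22, adjusted p = 1.65e-11). *Vim* was at 296 and 323 against 1617 and 1067 CPM (log2 fold change -2.11 ± 0.14, adjusted p = 1.67e-11). *Slc1a3* was at 161 and 116 against 579.6 and 699 CPM (log2 fold change -2.22 ± 0.17, adjusted p = 1.9e-10). *Sox9* was at 76.1 and 74.3 against 248 and 232 CPM (log2 fold change -1.67 ± 0.15, adjusted p = 1.93e-09). *Hopx*, a marker of outer radial glia, was at 4.67 and 0.984 against 85.7 and 101 CPM (log2 fold change -5.14 ± 0.46, adjusted p = 2.1e-09). *Sox2*, which both kinds of progenitor use to stay undifferentiated, was at 302 and 257 against 330.3 and 323 CPM (-0.23 ± 0.13, adjusted p = 0.267). Pallial factors were lower in 5 of 7 cases and higher in 2, *Insm1* and *Btg2*, with *Pax6* at 88.8 and 91.04 against 301 and 304 CPM (log2 fold change -1.76 ± 0.14, adjusted p = 4.22e-10). *Lhx2* was at 46.1 and 53.6 against 277 and 294 CPM (log2 fold change -2.53 ± 0.18, adjusted p = 2.03e-11). Of the erythroid list 3 of 5 were higher than in radial glia and 0 lower, with a sum of 897 and 997 against 337 and 827 CPM. DESeq2 and the fit with no replicate block each called 0 of the 5, with 3 and 2 at an unadjusted p under 0.05, and the part of free RNA in this comparison was not tested.

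Of 17 Notch genes 5 were higher than in radial glia and 7 lower. Higher were the ligands *Dll1* (92 UMIs against 3, ratio 10.1, counting interval 3.34 to 49.7) and *Dll3* (34.04 and 33.96 against 6.23 and 3.87 CPM, log2 fold change 2.68 ± 0.50, adjusted p = 0.000197), and *Hes6* (183 and 201 against 37.4 and 58.1 CPM, log2 fold change 2.03 ± 0.19, adjusted p = 5.97e-09), with *Mfng* and *Maml1*, the last of which DESeq2 did not call. Lower were the receptors *Notch1* (91.4 and 87.6 against 159 and 189.7 CPM, log2 fold change -0.96 ± 0.17, adjusted p = 0.000119), *Notch2* and *Notch3*, and the effectors *Hes1* (6.01 and 11.8 against 118 and 149 CPM, log2 fold change -3.89 ± 0.28, adjusted p = 3.7e-11), *Hes5* (30.04 and 19.7 against 77.9 and 129.7 CPM, log2 fold change -2.07 ± 0.28, adjusted p = 3.11e-06) and *Hey1*, with the modifier *Lfng*. *Hes1* was lower than in radial glia in both libraries with log2 ratios of -4.02 and -3.51.

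Of 22 cyclins and inhibitors 9 were higher than in radial glia and 0 lower (median 0.41). *Ccnd2* was at 1934 and 1821 against 703 and 614 CPM (log2 fold change 1.51 ± 0.12, adjusted p = 2.02e-10), whereas *Ccnd1* at 74.1 and 73.3 against 59.2 and 50.3 CPM did not pass the test (0.44 ± 0.23, adjusted p = 0.214). *Gadd45g* was at 324 and 319 against 52.98 and 52.3 CPM (log2 fold change 2.60 ± 0.19, adjusted p = 3.62e-11). *Btg2*, an antiproliferative gene of neurogenic divisions, was at 80.1 and 69.4 against 26.5 and 46.5 CPM (log2 fold change 1.05 ± 0.26, adjusted p = 0.00395). Of 43 S phase genes 13 were higher and 0 lower (median 0.41), among them *Pcna* (413 and 373 against 347 and 232 CPM, adjusted p = 0.046), *Cdca7* and *Rrm2* (315 and 266 against 192 and 143 CPM, log2 fold change 0.79 ± 0.15, adjusted p = 0.000205), and DESeq2 called 6, without *Pcna*, and the fit with no replicate block 8. Of 52 G2M genes 6 were higher and 5 lower (median 0.03), which is near the 9.83% and 9.91% of all genes called in each direction, and DESeq2 and the fit with no replicate block each gave 2 higher and 1 lower. With each cell thinned to 1500 UMIs, 78.5% and 83.3% of the progenitors held more G2M than S phase UMIs, against 79.2% and 85.7% of the radial glia. The share was 64.0% and 67.0% in non-cycling GABAergic cells and 66.7% and 61.5% in IPCs, and the 2 lists differ in size. It therefore does not give the share of progenitors in each phase. The 2 genes that defined cycling, *Mki67* and *Top2a*, are known to peak late in the cycle.

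The largest differences from radial glia by the naming rule were, on the higher side, *St18*, a zinc finger factor of GABAergic neurons (403 UMIs against 0, at least 44.1-fold), *B020031H02Rik* (390 UMIs against 0, at least 42.7-fold), *Sfta3-ps* (at least 24.8-fold), *Gm45680* (at least 22.6-fold) and *E130006D01Rik* (at least 16.95-fold). On the lower side were *Dct* (2 UMIs against 69, ratio 105, counting interval 28.03 to 886), *Col12a1* (2.67 and 1.48 against 67.00 and 87.1 CPM, log2 fold change -5.24 ± 0.48, adjusted p = 2.83e-09) and *Hopx*, with *C030018K13Rik* and *Adamts19*. *Adamts19* was uneven between the libraries of radial glia, at 37.4 and 1.94 CPM.

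**Figure D4:**
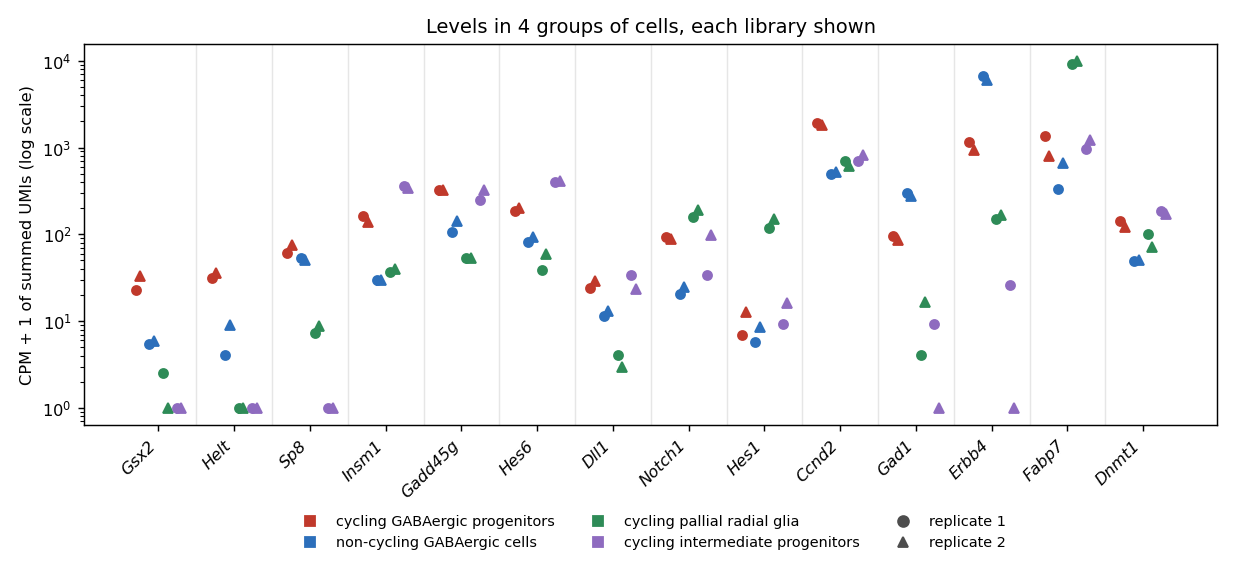
CPM plus 1 (log scale) of 14 genes in the 4 kinds of cells, circles for replicate 1 and triangles for replicate 2, each point the UMIs summed over the cells of a kind in a library. *Ccnd2* and *Gsx2* were highest in the cycling GABAergic progenitors in both libraries, whereas *Gadd45g* overlapped with the cycling IPCs.

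Cycling IPCs, the dividing neurogenic cells of the excitatory lineage, were compared on 9 and 13 cells. By edgeR 5.02% of 12371 genes were called, 2.99% higher and 2.03% lower, and the median over all genes was a log2 fold change of 0.21, so changes are read against that shift. Of 23 ganglionic eminence factors 11 were higher and 1 lower (DESeq2 6 and 1). The median log2 fold change was 6.17, or 1.01 with genes that had 0 UMIs in IPCs at their lower bound. Of the 24 factors listed, 15 had 0 UMIs in the IPCs of replicate 1 and 15 in those of replicate 2. Such genes passed the filter on low counts only with counts of other kinds of cells. *Sp8* and *Gsx2* had 0 UMIs in IPCs, at least 5.81-fold and at least 2.37-fold higher in the progenitors, and DESeq2 gave no adjusted p for *Gsx2*. *Sp9* (685 UMIs against 0, at least 16.4-fold), the noncoding *Meg3* (at least 12.97-fold), the vesicular monoamine transporter *Slc18a2* (at least 10.3-fold), *Gm38505* (at least 46.2-fold) and *Dlx1as*, antisense to *Dlx1*, led the higher side, and *Dlx1as* differed by the choice of cells, since IPCs with a *Dlx* UMI were left out. Lower were the proneural factor *Neurog2* (0.668 and 2.95 against 375 and 488 CPM, log2 fold change -7.74 ± 0.40, adjusted p = 4.06e-13), *Lypd6* (-6.83 ± 0.64), *Col25a1* (-5.67 ± 0.72), *Nrn1* (-5.49 ± 0.64) and *Cacng5* (-5.19 ± 0.88), and 6 of 7 pallial factors in all.

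Of 17 Notch genes 1 was called, near the 5.02% of all genes called against IPCs, so nothing about the list is read from that count. The gene was *Hes6*, lower at 183 and 201 against 399.5 and 413 CPM (log2 fold change -1.08 ± 0.18, adjusted p = 0.000278). *Dll1* was at 23.4 and 28.1 against 33.3 and 22.5 CPM (-0.10 ± 0.59, adjusted p = 0.959). *Gadd45g* was at 324 and 319 against 249.7 and 323 CPM (0.16 ± 0.20, adjusted p = 0.754). Neither passed the test at this number of cells. *Insm1* was lower than in IPCs (161 and 139 against 358 and 338 CPM, log2 fold change -1.22 ± 0.19, adjusted p = 0.000124), *Ccnd2* was higher (1934 and 1821 against 699 and 825 CPM, log2 fold change 1.30 ± 0.14, adjusted p = 4.7e-07), and *Cdca7*, a replication-linked factor, was higher (385 and 369 against 49.9 and 90.04 CPM, log2 fold change 2.41 ± 0.27, adjusted p = 7.19e-07). The difference between the comparisons with radial glia and with IPCs was not tested, and both share the same progenitors.

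DNA methylation and ephrin signaling are themes of the study, and their genes were read in the progenitors. *Dnmt1*, the maintenance DNA methyltransferase that acts at replication, was at 143 and 119.6 against 48.8 and 49.6 CPM in non-cycling GABAergic cells (log2 fold change 1.40 ± 0.14, adjusted p = 4.54e-09). These kinds of cells were chosen apart by cycle genes, so the difference may follow from the choice, which was not tested. The radial glia held 99.7 and 69.7 CPM (log2 fold change 0.61 ± 0.18, adjusted p = 0.0145, a call that DESeq2 did not make) and the IPCs 183 and 173 CPM (-0.45 ± 0.25, adjusted p = 0.413). The de novo enzyme *Dnmt3a* was at 58.7 and 75.8 against 62.4 and 64.4 CPM in non-cycling cells and did not pass the test (0.10 ± 0.18, adjusted p = 0.7), but was lower than in radial glia (58.7 and 75.8 against 192 and 143 CPM, log2 fold change -1.31 ± 0.21, adjusted p = 2.26e-05). Of 10 methylation genes tested, *Dnmt1* and *Mbd3* were the 2 higher than in non-cycling GABAergic cells and 0 were lower, beside 18.6% of all genes called higher, and DESeq2 called 1. Against radial glia 4 of 11 were higher and 1 lower (*Dnmt3a*), beside 9.83% and 9.91% of all genes. DESeq2 called 2 higher and 1 lower there and gave no adjusted p for 1 gene.

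Of 15 Eph receptors and ephrins tested, 2 were higher and 5 lower than in non-cycling GABAergic cells (DESeq2 1 and 4), beside 18.6% and 17.9% of all genes. Against radial glia *Epha3* and *Efna5* were the 2 higher, and *Epha5*, *Ephb1* and *Efnb1* the 3 lower, beside 9.83% and 9.91% of all genes (DESeq2 2 and 1, with no adjusted p for 1 gene). The receptor *Epha4* was at 458 and 359 CPM in the progenitors and passed the test against none of the 3 other kinds of cells (adjusted p = 0.476, 0.938 and 0.213). Its ligand gene *Efnb2* was at 134 and 123 CPM and passed none of them either (adjusted p = 0.0707, 0.651 and 0.897). *Efna5* was higher than in radial glia (304 and 324 against 88.8 and 94.9 CPM, log2 fold change 1.78 ± 0.18, adjusted p = 1.63e-08), as was *Epha3* (719.6 and 485 against 136 and 30.97 CPM, log2 fold change 2.83 ± 0.29, adjusted p = 2.2e-08). Within the progenitors *Efna5* was higher in MGE-marked cells (551 and 777 against 252 and 262 CPM, log2 fold change 1.36 ± 0.17, adjusted p = 0.000516), in both libraries.

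Of growth factor receptors and their pathway genes, 6 of 16 were higher than in non-cycling GABAergic cells and 1, *Fgfr2*, was lower, beside 18.6% and 17.9% of all genes, and DESeq2 gave 4 and 1. Against radial glia 8 of the 16 were lower and 2, *Egfr* and *Etv1*, were higher, beside 9.91% and 9.83% of all genes, and DESeq2 gave 7 and 0 and no adjusted p for 1 gene. *Egfr*, which marks transit-amplifying progenitors, was higher than in both, at 86.8 and 80.7 against 21.4 and 22.8 CPM in non-cycling cells (log2 fold change 1.91 ± 0.19, adjusted p = 3.27e-09) and 46.7 and 42.6 CPM in radial glia (log2 fold change 0.89 ± 0.24, adjusted p = 0.00889, not called by DESeq2). *Gli3*, the hedgehog repressor of the pallium, was lower than in radial glia at 185 and 193 against 740.1 and 583 CPM (log2 fold change -1.80 ± 0.13, adjusted p = 5.54e-11), and so were the FGF receptors *Fgfr2* (185 and 163 against 291 and 275 CPM, log2 fold change -0.70 ± 0.13, adjusted p = 0.000263) and *Fgfr3* (10.7 and 6.40 against 48.3 and 19.4 CPM, log2 fold change -1.98 ± 0.48, adjusted p = 0.00341).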

How the data were processed

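Single-cell RNA of embryonic mouse cortex was captured with 10x Genomics 3′ chemistry in 2 libraries of a single group. The deposited values were raw UMI counts per gene and barcode that the authors made with Cell Ranger against mm10. The submitters' processing notes name version 7.0.0 and the file headers 7.1.0. Barcodes with 1500 to 60000 UMIs and under 10% mitochondrial UMIs were kept. Doublets were scored with Scrublet in scanpy 1.11.5 and kept, and the highest scores (0.8% of cells per 1000 cells) were removed in an alternative. The members, gene lists and splits were chosen with earlier results of these data known.

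Counts were summed per library and kind of cells. Genes that reached 10 counts in 2 sums or more were tested with the quasi-likelihood test of edgeR 4.0.16 in R 4.3.3, with TMM scaling and the library as a block, over 8 sums (3 residual degrees of freedom) or, within the progenitors, 4 sums (1 residual degree of freedom). Calls were made at a Benjamini-Hochberg adjusted p under 0.05 over all genes tested, and p-values measure only the spread between these libraries. Both kinds of cells in a comparison came from the same 2 libraries, which is where the pairing comes from. Library log2 ratios used a prior count of 2. DESeq2 1.42.0 was an alternative. Shares compared across depths used cells thinned to 1500 UMIs. Intervals are exact Clopper-Pearson intervals at 95% and, like the limit of 3 counts for genes at 0, cover counting error only. Named genes were examples of the lists by role and, per test and direction, the 5 called genes of largest log2 fold change with at least 10 CPM in the higher group and 1 direction in both libraries. A further split of the progenitors and some genes of the lists are not reported here, though those genes stay in the list counts. Scripts were tested on simulated data.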

Additional observations from a re-analysis of the deposited data

How the results depend on the processing

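The counts of called genes moved by over 1.5 times in these cases. With DESeq2, 1208 genes were higher and 1374 lower than in non-cycling GABAergic cells (2377 and 2203 with edgeR, cycle and gate genes included), 746 were higher than in radial glia (1218), and 29 were higher and 4 lower in MGE-marked progenitors (82 and 28). The MGE split gave 129 higher and 83 lower with no filter on low counts, 31 and 18 without the highest doublet scores, 11 lower with no replicate block, 59 lower in cells of at least 4000 UMIs, 45 lower without members that held a pallial UMI, and 47 lower without barcodes found in both libraries, an alternative chosen after seeing the data. The progenitors' share was 2.21% and 2.08% with 3 UMIs required for each criterion and 0.805% and 0.830% in cells thinned to 1500 UMIs. At 3 UMIs the log2 fold change turned for *Ebf1* against radial glia (1.58). Over single libraries *Ebf1* ranged from -2.51 to 0.58. Of 199 log2 fold changes examined by gene, 60 moved without replicate 1 by more than the SD between the library ratios, besides *Ebf1*, and 58 moved without replicate 2. Of the 166 called, 66 lay over 1.5 times from the ratio of a library or of both, and 48 of these had under 10 UMIs in the lower group. The other 18, *Ebf1* against radial glia included, were, with the ratio in replicate 1 and in replicate 2, *Ebf1* (-1.54 and -3.01), *Fabp7* (2.01 and 0.27), *Hba-a1* (-0.34 and -1.81), *Helt* (2.86 and 1.95), *Hes5* (1.83 and 0.74), *Slc1a3* (2.49 and 1.09) against non-cycling cells, *Cdkn1c* (3.19 and 0.26), *Epha3* (2.40 and 3.91), *Gad1* (4.44 and 2.35), *Hes5* (-1.34 and -2.64) against radial glia and *Dlgap2* (4.67 and 3.63), *Gli3* (-2.17 and -0.90), *Maf* (4.302 and 2.77), *Mt3* (-2.60 and -0.87), *Npy* (1.82 and 2.62), *Nxph1* (4.99 and 3.34), *Ptprt* (4.45 and 3.65) in the MGE split. The cause of these changes was not tested. Leaving out a library left no residual degrees of freedom, so it gave log2 ratios and no counts of calls. The MGE split was not run at 3 UMIs or at the mitochondrial limit of 5%, since a sum then held under 20 cells. That floor was set for splits within the progenitors only, and the IPC comparison was run on 9 and 13 cells.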
